A study of Mus musculus with 6 samples.

Results

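The cytochrome P450 genes, named *Cyp* followed by a family number, were examined in dorsal neck skin of 3 YAP2-5SA-∆C mice and 3 wild type littermates. All 6 mice were females of 33 days of age, and each gave 1 RNA-Seq library from a whole skin punch biopsy. YAP is the transcriptional co-activator that the Hippo pathway holds back. The YAP2-5SA-∆C transgene encodes an altered YAP with moderately raised activity, and its expression is directed to the basal layer of the epidermis, whose cells are marked by Keratin5 and Keratin14. The transgene is absent from the wild type littermates, and the biopsies hold epidermis, hair follicles, sebaceous glands, dermis, fat and some muscle together. A member was any protein-coding gene of the GENCODE M21 annotation (GRCm38) whose symbol is *Cyp* and a number, which gave 100 genes. Of these, 81 had a row among the 26579 genes of the count table, and 37 reached 1 CPM (the count scaled by the total of the library) in 3 libraries or more and were tested, among 15102 genes tested in all. The other 44 genes with a row were below that filter, and 19 had no row and were not analysed here.

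P450s are heme proteins that insert an oxygen atom into their substrate. Most sit in the endoplasmic reticulum and take electrons from the P450 reductase encoded by *Por*, and a few sit in mitochondria and take them from ferredoxin. Families 1 to 3 mainly oxidize foreign compounds and polyunsaturated fatty acids, family 4 hydroxylates fatty acids at their far end, and the families with higher numbers mostly handle sterols, bile acids, steroid hormones, retinoic acid and vitamin D. In skin they are known for processing the lipids of the water barrier, for clearing foreign compounds and for setting the local level of retinoic acid and of the active form of vitamin D.

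The heme is held by a cysteine near the end of the protein, and the coding sequence around that cysteine is shown for 7 members because it is the stretch by which a P450 is recognized. The P450 heme-iron ligand signature of PROSITE was found in the translated coding sequence of 33 of the 37 tested members. It was not found in *Cyp7b1*, *Cyp20a1*, *Cyp2s1* and *Cyp39a1*. Each line gives the 30 bases that encode the signature in the GENCODE M21 transcript, 5′ to 3′ on the strand of the gene, with the codon of the heme-binding cysteine in capitals.
Cyp2b10: ttctcaacaggaaagcgcattTGTcttggt
Cyp2b19: ttctccacaggaaagcgcattTGTcttgga
Cyp2b23: ttctccacaggaaagcgcattTGTcttggc
Cyp4f39: ttctcagcaggtcccaggaatTGCatcggg
Cyp51: tttggagctgggcgtcatcgtTGTgttgga
Cyp1a1: tttggtttgggcaagcgaaagTGCatcgga
Cyp26b1: tttggcggtggcgtgcggaccTGCctgggc

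The stretch of *Cyp1a1* lies in 1 exon at chr9:57702664-57702693 on the plus strand, and that of *Cyp26b1* lies in 1 exon at chr6:84574477-84574506 on the minus strand (GRCm38). The other 5 stretches cross an exon junction. *Cyp2b10* shared 28 of the 30 bases with *Cyp2b19* and 28 with *Cyp2b23*, against 18 with *Cyp4f39*, 15 with *Cyp51*, 15 with *Cyp1a1* and 14 with *Cyp26b1*. *Cyp4f39* shared 22 to 24 bases with the other tested *Cyp4f* genes and 26 with *Cyp4b1*. Only uniquely mapped reads were counted, so sequence shared between genes lowers their counts. Of all 75-base windows of the transcripts of *Cyp2b10*, the read length used here, 2.76% also occurred in another gene, and the share was 0.733% for *Cyp2b19*, 1.8% for *Cyp2b23* and 0% for *Cyp4f39*. The highest shares among tested members were 11.4% for *Cyp4f37*, 10.8% for *Cyp4x1* and 10.1% for *Cyp4f16*, so the values of these genes are less certain. *Cyp4f37* and *Cyp4f16* shared most with each other. *Cyp4x1* shared most with *Cyp4x1os*, an antisense gene whose exons overlap 10.75% of its own. Reads from that overlap fit 1 place in the genome, and their counting depends on the strand setting, which is not known here.

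The libraries held between 11225705 and 19505036 counts. On a multidimensional scaling plot, YAP2-5SA-∆C replicate 2 stood apart on the first dimension, at 2.24 against 0.30 and 0.26 for the other YAP2-5SA-∆C libraries and -1.20 to -0.51 for wild type. The level of *Yap1* was 131 ± 9.45 CPM without and 136 ± 7.32 CPM with the transgene (SD, n = 3). The log2 fold change was 0.06 ± 0.07 (SE, FDR 0.635, edgeR's quasi-likelihood test), and it is not known if transgene reads count towards this gene, so that it does not check the genotypes. The summed level of 7 basal keratinocyte markers was 3586 to 4350 CPM in wild type and 5890 to 7526 CPM in YAP2-5SA-∆C skin. Hair shaft and inner root sheath markers summed to 13241 to 16648 CPM in wild type and to 7026, 1445 and 8877 CPM in YAP2-5SA-∆C replicates 1, 2 and 3. Sebaceous gland markers summed to 626, 441 and 354 CPM in wild type replicates 1, 2 and 3, and to 858, 981 and 948 CPM in YAP2-5SA-∆C replicates 1, 2 and 3. Markers of hepatocytes, the cells best known for P450s, were close to absent, with sums of 1.15 to 2.47 CPM in wild type and 2.06 to 8.40 CPM in YAP2-5SA-∆C skin. In such bulk tissue, fewer cells of a type and less RNA per cell cannot be told apart.

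All values below are given in the order of replicates 1, 2 and 3, as CPM scaled with TMM factors, and fold changes compare YAP2-5SA-∆C with wild type skin. The filter used values of both genotypes. Of the 37 tested members, 32 had at least 1 CPM in all 6 libraries. *Cyp2b23* passed through the YAP2-5SA-∆C libraries alone, so that its place among the tested genes already required a higher level there, and no member passed through the wild type libraries alone. Just inside the filter, in CPM before TMM scaling, *Cyp2b23* was at 0.861, 0.461 and 0.267 in wild type and 1.03, 1.29 and 1.51 in YAP2-5SA-∆C skin. *Cyp2u1* was at 1.26, 2.05 and 0.891 in wild type and 0.686, 1.06 and 2.07 in YAP2-5SA-∆C skin. *Cyp27b1* was at 1.72, 1.33 and 1.51 in wild type and 1.60, 1.53 and 0.941 in YAP2-5SA-∆C skin. The groups of *Cyp2b23* were apart and those of the other 2 overlapped. Just outside it, *Cyp2ab1* was at 0.688, 0.974 and 0.713 in wild type and 0.801, 0.764 and 0.941 in YAP2-5SA-∆C skin. *Cyp46a1*, which encodes the brain cholesterol hydroxylase, was at 0.746, 0.410 and 0.267 in wild type and 0.629, 0.529 and 0.753 in YAP2-5SA-∆C skin. *Cyp26c1* was at 0.287, 0.410 and 0.356 in wild type and 0.343, 0.0587 and 0.188 in YAP2-5SA-∆C skin. The 44 members below the filter had 1 to 81 counts in the 6 libraries together, with a median of 4, and 36 of them had fewer than 10.

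The families differed in how many members were measurable. Family 2, the largest, had 49 coding genes, 38 rows and 15 tested members. Family 4 had 20 coding genes, 16 rows and 9 tested members, and family 3 had 9 coding genes, 6 rows and 2 tested members. Family 1 had 2 tested members, *Cyp1a1* and *Cyp1b1*, and family 27 had 2, *Cyp27a1* and *Cyp27b1*. Families 7, 11, 17, 20, 26, 39 and 51 had 1 tested member each, and families 8, 21, 24 and 46 had none above the filter. Among the members below it, named after their values were seen, were *Cyp7a1* and *Cyp8b1* of hepatic bile acid synthesis, *Cyp11b1*, *Cyp11b2* and *Cyp21a1* of adrenal steroid synthesis, and the *Cyp2c* and *Cyp4a* genes that had a row.

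To compare the members with each other, CPM were divided by the exon length of the gene in kb. In wild type skin the highest was *Cyp51*, the demethylase of cholesterol synthesis, at 29.3 ± 4.93 CPM per kb (SD, n = 3). *Cyp2g1*, otherwise known from olfactory epithelium, followed at 24.8 ± 11.2 CPM per kb. The next were *Cyp2b19*, a keratinocyte arachidonic acid epoxygenase, at 13.2 ± 0.770, *Cyp2e1*, which oxidizes ethanol and small solvents, at 13.1 ± 3.22, and *Cyp4f39* at 12.3 ± 1.61 CPM per kb. The range of *Cyp51* overlapped that of *Cyp2g1*, and those of *Cyp2b19*, *Cyp2e1*, *Cyp4f39*, *Cyp1b1* and *Cyp26b1* overlapped from each to the next. Over the whole order, 31 of 36 neighbouring pairs overlapped in wild type. The 5 places where neighbours were apart came after *Cyp2g1*, *Cyp2b10*, *Cyp2j6*, *Cyp2r1* and *Cyp4f37*. In YAP2-5SA-∆C skin *Cyp2g1* came first at 50.7 ± 14.5 CPM per kb, before *Cyp51* at 43.8 ± 5.68, *Cyp4f39* at 19.1 ± 1.62, *Cyp26b1* at 18.6 ± 6.61 and *Cyp2b10* at 16.0 ± 1.36. The ranges of *Cyp2g1* and *Cyp51* overlapped here too, as did those of *Cyp4f39* and *Cyp26b1* and those of *Cyp26b1* and *Cyp2b10*. *Cyp2b10* was at place 10 in wild type and place 5 in YAP2-5SA-∆C skin. However, its range overlapped those of *Cyp4b1*, *Cyp2f2* and *Cyp26b1* in wild type. In YAP2-5SA-∆C skin its range overlapped those of *Cyp26b1*, *Cyp2b19* and *Cyp2e1*, so neither place is settled.

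**Figure D1:**
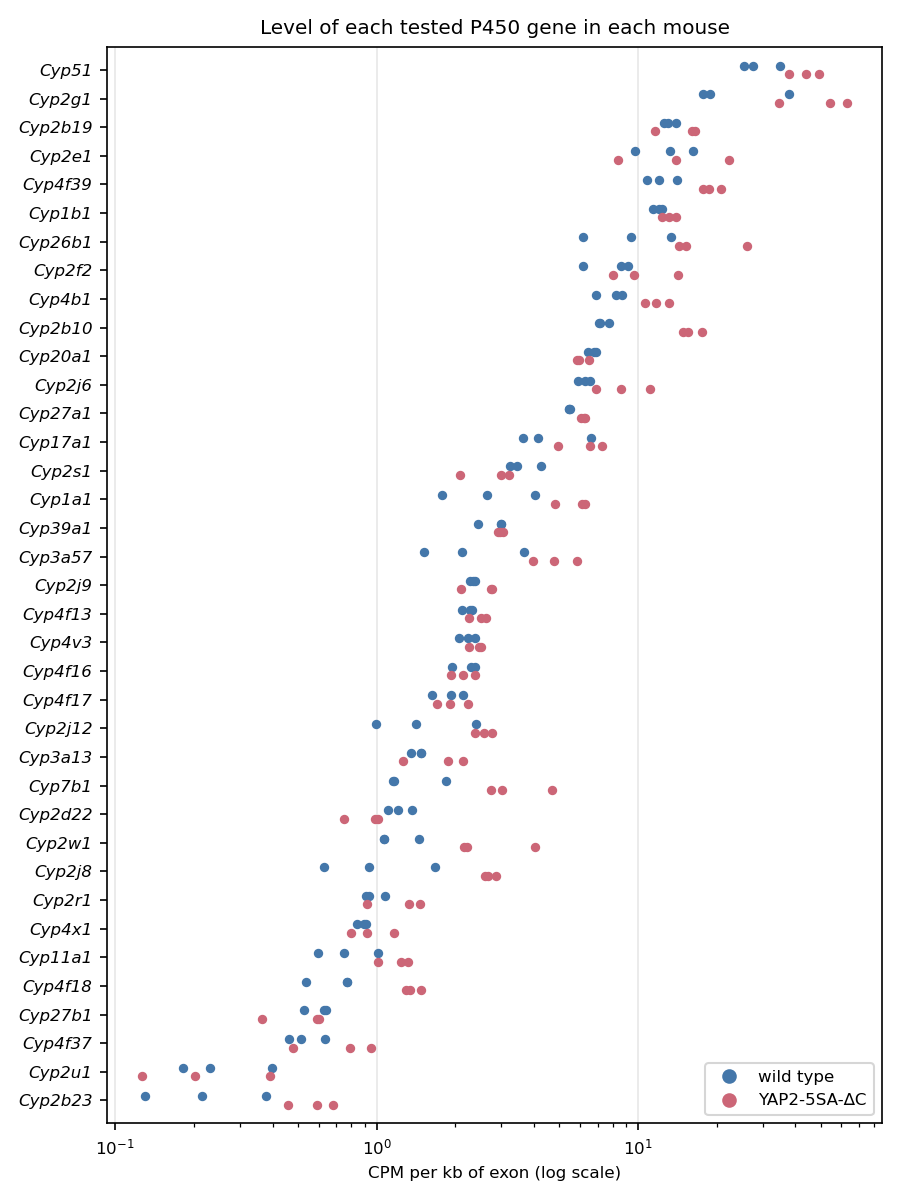
Level of the 37 tested P450 genes in each mouse, as CPM per kb of exon on a log axis, with genes in the order of their wild type mean; each dot is 1 mouse. Levels run from 0.240 CPM per kb for *Cyp2b23* to 29.3 for *Cyp51* in wild type, and the dots of *Cyp2b10*, *Cyp7b1* and *Cyp2j8* lie apart between genotypes.

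The comparison of the genotypes asked which P450 genes differ in skin whose basal keratinocytes carry active YAP. *Cyp2b10* and *Cyp4f39* rose in YAP2-5SA-∆C skin at a false discovery rate (FDR) below 0.05, and no member fell. The 2 called members are 5.41% of the 37 tested, beside 1.91% of all genes tested that were called in either direction, 1.44% called higher and 0.464% called lower. At an unadjusted p below 0.05, 16 members were higher (43.2%), beside 13.3% of all genes, and 1 was lower (2.7%), beside 13% of all genes. The values of the genotypes did not overlap for 15 members in the higher direction (40.5%), beside 15.5% of all genes, and for 2 in the lower direction (5.41%), beside 18.3% of all genes. The point estimate was above 0 for 31 members (83.8%), beside 47.6% of all genes, and the median log2 fold change was 0.37 over the members, beside -0.01 over all genes tested. Each of the 3 counts in the higher direction includes *Cyp2b23*, whose direction the filter had fixed, since it was tested through the YAP2-5SA-∆C libraries alone. These shares describe genes that passed an expression filter and share libraries, and they were given no test. The 17 members with an unadjusted p below 0.05 in either direction became 10 of 37 when replicate 2 of wild type was removed, 12 of 37 when replicate 3 of wild type was removed, and 13 to 17 when any other library was removed. At an FDR below 0.1 there were 9 members, beside 13% of all genes, and apart from *Cyp2b10* and *Cyp4f39* these 9 were *Cyp7b1*, *Cyp4f18*, *Cyp4b1*, *Cyp2j8*, *Cyp51*, *Cyp2w1* and *Cyp1a1*.

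The count of called members depended on the test. The likelihood-ratio test of edgeR called 13 members (35.1%), beside 10.4% of all genes in either direction and 5.52% in the higher one, and *Cyp2b23* is again among the 13. DESeq2 called 10 (27%), beside 10.5% and 6.34% of all genes. Voom called *Cyp2b10* and *Cyp4f39*, beside 1.65% and 1.23% of all genes. All members called by these tests were higher in YAP2-5SA-∆C skin. Leaving out YAP2-5SA-∆C replicate 2, the library that stood apart, gave 28 members above 0 and 8 below it, with a median log2 fold change of 0.21. In that fit 3 of 36 members were called, beside 816 of all 14950 genes tested.

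**Figure D2:**
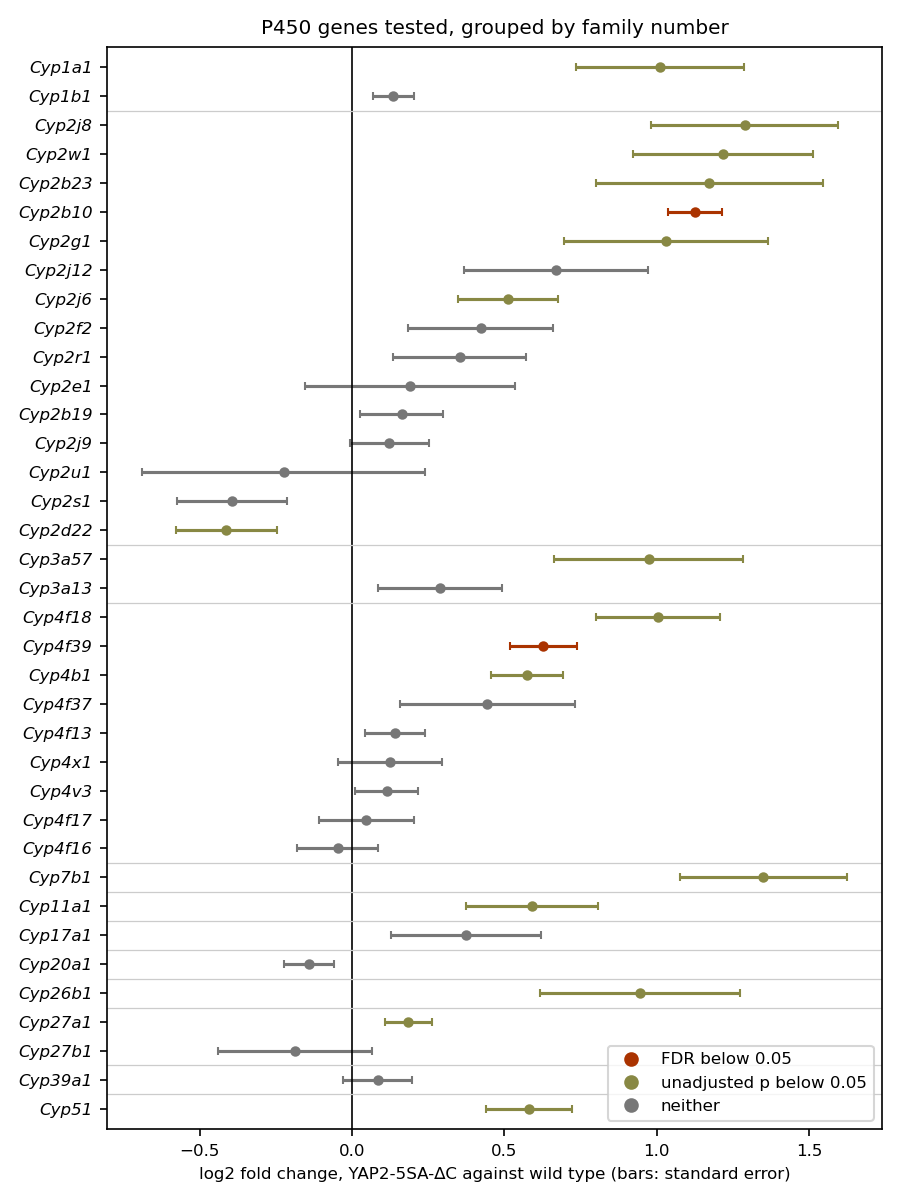
Log2 fold change of YAP2-5SA-∆C against wild type for the 37 tested P450 genes, grouped by family with family 1 at the top and family 51 at the bottom; dots are estimates of the quasi-likelihood fit and bars their standard errors. Dots of 31 genes lie right of 0, and *Cyp2b10* and *Cyp4f39* have an FDR below 0.05.

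*Cyp2b10* (ENSMUSG00000030483, chr7:25897620-25926624, plus strand, GRCm38) encodes an enzyme that oxidizes foreign compounds and is best known as a target of the constitutive androstane receptor in liver. Its level was 16.4, 14.9 and 15.1 CPM in wild type and 31.5, 37.0 and 32.9 CPM in YAP2-5SA-∆C skin. All YAP2-5SA-∆C mice were above all wild type mice, with a wide gap between the groups. The mean went from 15.5 ± 0.804 to 33.8 ± 2.87 CPM (SD, n = 3), a log2 fold change of 1.13 ± 0.09 (SE, FDR 0.0101, edgeR's quasi-likelihood test). With any 1 library removed, its log2 fold change stayed between 1.07 and 1.19. Removing replicate 2 or replicate 3 of wild type, or replicate 3 of YAP2-5SA-∆C, ended the call, with FDRs of 0.10, 0.0527 and 0.0819, and no gene of any kind was then called.

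*Cyp2b10* lies in a cluster of family 2 genes on chromosome 7, in which 6 tested members spanned chr7:25802475-27133660. Their log2 fold changes ran from -0.39 to 1.17, the upper end being that of *Cyp2b23*, which passed the filter through the YAP2-5SA-∆C libraries alone. Differences between these genes were not tested. *Cyp2b19* (ENSMUSG00000066704), whose coding sequence was identical to that of *Cyp2b10* at 87.8% of 1473 aligned bases, was at 52.2, 54.2 and 58.5 CPM in wild type and 67.2, 68.9 and 48.3 CPM in YAP2-5SA-∆C skin. YAP2-5SA-∆C replicate 3 was below all wild type mice, and the difference did not pass the test (log2 fold change 0.16 ± 0.14 SE, FDR 0.483). *Cyp2b23*, 87.6% identical to *Cyp2b10*, was at 0.823, 0.470 and 0.285 CPM in wild type and 0.999, 1.29 and 1.49 CPM in YAP2-5SA-∆C skin. The groups did not overlap, and the log2 fold change of 1.17 ± 0.37 (SE) had an FDR of 0.110. *Cyp2g1* (ENSMUSG00000049685) was at 81.0, 40.4 and 38.1 CPM in wild type and 135, 117 and 74.5 CPM in YAP2-5SA-∆C skin. Wild type replicate 1 was above YAP2-5SA-∆C replicate 3, and the log2 fold change of 1.03 ± 0.34 (SE) had an FDR of 0.117. *Cyp2s1*, at the other end of the cluster and given by sample after its values were seen, was at 17.1, 15.9 and 21.0 CPM in wild type and 15.8, 10.3 and 14.8 CPM in YAP2-5SA-∆C skin. All 3 YAP2-5SA-∆C values were below all wild type values, by a narrow margin between replicate 2 of wild type and replicate 1 of YAP2-5SA-∆C, and the FDR was 0.218. *Cyp2f2* had overlapping groups and a log2 fold change of 0.42 ± 0.24 (SE).

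*Cyp4f39* (ENSMUSG00000061126, chr17:32452723-32493320, plus strand, GRCm38) encodes the omega-hydroxylase of ultra-long-chain fatty acids, which are built into the acylceramides of the skin barrier. Its level was 40.2, 34.4 and 31.1 CPM in wild type and 50.5, 59.5 and 53.3 CPM in YAP2-5SA-∆C skin. The groups did not overlap, and the mean went from 35.2 ± 4.60 to 54.5 ± 4.62 CPM (SD, n = 3). The log2 fold change was 0.63 ± 0.11 (SE, FDR 0.0456, edgeR's quasi-likelihood test) and stayed between 0.56 and 0.74 when each library was left out. The call held with replicate 1 of wild type or replicate 2 of YAP2-5SA-∆C removed and was lost in the other 4 cases, with FDRs of 0.0677 to 0.186. Suprabasal keratinocyte markers, which belong to the layers where the barrier lipids are made, summed to 4018 to 4888 CPM in wild type and 5757, 9474 and 5187 CPM in YAP2-5SA-∆C skin, and 0 of the 6 tested markers of that list were called (2 had groups apart in the higher and 1 in the lower direction, beside 15.5% and 18.3% of all genes). The part of these cells in the level of *Cyp4f39* was not tested.

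Of the 9 tested members of family 4, *Cyp4f39* was called, 2 others had an unadjusted p below 0.05 with groups that did not overlap, and the median log2 fold change of the family was 0.14. These 3 of 9 stand beside 24.8% of all genes with such a p and no overlap in either direction. The genes beside *Cyp4f39* on chromosome 17 (*Cyp4f17*, *Cyp4f16*, *Cyp4f37* and *Cyp4f13*, all within chr17:32452723-32947402) had log2 fold changes of 0.05, -0.05, 0.44 and 0.14, and their groups overlapped. *Cyp4f39* was also the most distant of these in sequence, with 70.6% to 71.4% identical bases against the other tested *Cyp4f* genes, whereas *Cyp4f16* and *Cyp4f37* were 96.1% identical to each other.

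*Cyp4f18*, on chromosome 8, encodes an enzyme that oxidizes leukotriene B4, a lipid that attracts neutrophils, in myeloid cells. It was at 1.43, 0.992 and 1.42 CPM in wild type and 2.50, 2.41 and 2.74 CPM in YAP2-5SA-∆C skin. The groups were apart, and the log2 fold change of 1.00 ± 0.20 (SE) had an FDR of 0.0547, so that it did not pass the test. Macrophage markers summed to 534 to 654 CPM in wild type and 774 to 866 CPM in YAP2-5SA-∆C skin, and 2 of the 9 tested markers, *Csf1r* and *Mrc1*, were called higher, beside 1.44% of all genes. All 9 had groups apart in the higher direction, beside 15.5% of all genes. Of the 8 neutrophil markers, 2 passed the filter and *Cxcr2* was called higher, beside 1.44% of all genes. Both tested markers had groups apart in the higher direction, beside 15.5% of all genes. The list summed to 8.72 to 13.0 CPM in wild type and 20.5 to 29.1 CPM in YAP2-5SA-∆C skin, while *Ngp* and *Ltf* were listed at 0 in 5 of 6 libraries each and *Ly6g* had no row. The part of these cells in the level of *Cyp4f18* was not tested. Its exons overlap those of *Zfp961* on the opposite strand over 9.76% of their length, and the strand setting of the counting is not given in the sources used here. *Cyp4b1*, which oxidizes fatty acids and some foreign compounds, was at 19.5, 18.6 and 15.6 CPM in wild type and 23.9, 29.7 and 26.5 CPM in YAP2-5SA-∆C skin. Its groups were apart, and the log2 fold change of 0.57 ± 0.12 (SE) had an FDR of 0.0549.

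None of the 4 tested members of the sterol and bile acid list was called, and 3 of them had an unadjusted p below 0.05 with groups apart, all in the higher direction, beside 24.8% of all genes that met both in either direction. *Cyp51* (ENSMUSG00000001467, chr5:4081145-4104746, minus strand) was at 154, 122 and 112 CPM in wild type and 168, 218 and 195 CPM in YAP2-5SA-∆C skin. The groups did not overlap, wild type replicate 1 lay closest to the YAP2-5SA-∆C mice, and the log2 fold change of 0.58 ± 0.14 (SE) had an FDR of 0.0665. *Cyp7b1* (ENSMUSG00000039519, chr3:18071950-18243338, minus strand), which hydroxylates oxysterols, was at 2.52, 2.51 and 3.99 CPM in wild type and 6.55, 5.93 and 10.2 CPM in YAP2-5SA-∆C skin. Its log2 fold change was 1.35 ± 0.27 (SE, FDR 0.0541), and replicate 3 was the highest of each genotype. *Cyp27a1*, the mitochondrial sterol hydroxylase, was at 11.80, 11.80 and 11.97 CPM in wild type and 13.21, 13.68 and 13.51 CPM in YAP2-5SA-∆C skin. Relative to its mean, its spread within each genotype was the smallest of the 37 tested members, and the groups were apart at a log2 fold change of only 0.18 ± 0.08 (SE, FDR 0.184). *Cyp39a1*, which acts on an oxysterol made in the brain, was at 9.16, 7.47 and 9.12 CPM in wild type and 9.05, 9.28 and 8.91 CPM in YAP2-5SA-∆C skin, and its groups overlapped (FDR 0.676). Of the 9 tested sebaceous gland markers, whose sums are given above, *Soat1* was called higher and none lower, beside 1.44% and 0.464% of all genes. The groups were apart in the higher direction for 7 of them and in the lower direction for 1, beside 15.5% and 18.3% of all genes. The latter was *Fads2*, a fatty acid desaturase named after its values were seen, with a mean of 18.6 CPM without and 11.2 CPM with the transgene (log2 fold change -0.73, FDR 0.0926). Wild type replicate 1 was the highest wild type library both for that list and for *Cyp51*, and the part of the sebaceous gland in the level of these genes was not tested.

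Family 1 is induced by the aryl hydrocarbon receptor, a sensor of planar aromatic compounds. *Cyp1a1* (ENSMUSG00000032315, chr9:57687928-57703824, plus strand) was at 11.2, 7.36 and 4.94 CPM in wild type and 13.4, 17.1 and 17.4 CPM in YAP2-5SA-∆C skin. The groups did not overlap, but wild type spread more than the difference between its highest mouse and the lowest YAP2-5SA-∆C mouse, and the log2 fold change of 1.01 ± 0.28 (SE) had an FDR of 0.0822. *Cyp1b1*, which oxidizes estradiol and many procarcinogens, was at 70.6, 66.7 and 72.5 CPM in wild type and 81.4, 72.0 and 76.7 CPM in YAP2-5SA-∆C skin. Its groups overlapped, with a log2 fold change of 0.13 ± 0.07 (SE, FDR 0.255). *Cyp1a2*, the liver member, was below the filter, with no count in 4 of the 6 libraries.

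*Cyp26b1* (ENSMUSG00000063415, chr6:84571414-84593908, minus strand) encodes a hydroxylase that degrades retinoic acid and was the one tested member of its list. It was at 71.8, 33.1 and 50.1 CPM in wild type and 76.6, 140 and 81.6 CPM in YAP2-5SA-∆C skin. The groups were apart by a small gap between the first replicates, YAP2-5SA-∆C replicate 2 was far above the others, and the log2 fold change of 0.95 ± 0.33 (SE) had an FDR of 0.131. Without YAP2-5SA-∆C replicate 2 the log2 fold change was 0.63. *Cyp26a1*, the other well known retinoic acid hydroxylase, was below the filter.

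The vitamin D list had 2 tested members and no call. *Cyp2r1*, which carries out the first hydroxylation of vitamin D, was at 1.92, 1.98 and 2.28 CPM in wild type and 1.94, 3.11 and 2.80 CPM in YAP2-5SA-∆C skin (log2 fold change 0.35 ± 0.22 SE, FDR 0.344). *Cyp27b1*, which makes the active hormone, was at 1.65, 1.36 and 1.61 CPM in wild type and 1.55, 1.53 and 0.934 CPM in YAP2-5SA-∆C skin (log2 fold change -0.19 ± 0.25 SE, FDR 0.673). Both had overlapping groups, and *Cyp24a1*, which inactivates the hormone, was below the filter. Of the steroid hormone list, *Cyp11a1*, the side-chain cleavage enzyme of cholesterol, was at 4.88, 2.87 and 3.61 CPM in wild type and 4.88, 5.93 and 6.35 CPM in YAP2-5SA-∆C skin. The highest wild type mouse and the lowest YAP2-5SA-∆C mouse were practically equal, and the log2 fold change of 0.59 ± 0.22 (SE) had an FDR of 0.145. *Cyp17a1*, the steroid hydroxylase and lyase, had overlapping groups and a log2 fold change of 0.37 ± 0.25 (SE, FDR 0.370).

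The *Cyp2j* genes, a subfamily known for arachidonic acid epoxygenases, form a cluster on chromosome 4, and 4 of them were tested (chr4:96099318-96591578). *Cyp2j8* was at 2.52, 1.41 and 0.950 CPM in wild type and 3.94, 4.35 and 4.05 CPM in YAP2-5SA-∆C skin. Its 3 YAP2-5SA-∆C values lay close together above a wide wild type range, and the log2 fold change of 1.29 ± 0.31 (SE) had an FDR of 0.0652. *Cyp2j6* was at 23.5, 21.3 and 22.5 CPM in wild type and 31.0, 40.1 and 24.9 CPM in YAP2-5SA-∆C skin, so that here it was the YAP2-5SA-∆C mice that spread (log2 fold change 0.51 ± 0.16 SE, FDR 0.112). *Cyp2j12* and *Cyp2j9* had overlapping groups, with log2 fold changes of 0.67 and 0.12. *Cyp2j8* and *Cyp2j12* were the closest pair of these in sequence, identical at 84.5% of 1499 aligned bases.

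*Cyp2w1*, on chromosome 5, was at 2.19, 1.62 and 1.61 CPM in wild type and 3.27, 6.11 and 3.36 CPM in YAP2-5SA-∆C skin. YAP2-5SA-∆C replicate 2 was far above the others, and the log2 fold change of 1.22 ± 0.30 (SE, FDR 0.0671) was 0.88 without it. *Cyp3a57*, of the subfamily that oxidizes steroids and many drugs, was at 7.30, 4.23 and 3.04 CPM in wild type and 7.88, 9.51 and 11.6 CPM in YAP2-5SA-∆C skin. Wild type replicate 1 nearly reached the lowest YAP2-5SA-∆C mouse, and the log2 fold change of 0.97 ± 0.31 (SE) had an FDR of 0.110. *Cyp2d22* was the one member with an unadjusted p below 0.05 in the lower direction. It was at 4.72, 4.33 and 5.32 CPM in wild type and 3.94, 2.94 and 3.86 CPM in YAP2-5SA-∆C skin, with the groups apart and a log2 fold change of -0.41 ± 0.16 (SE, FDR 0.169). *Cyp2e1* was at 21.0, 34.9 and 28.7 CPM in wild type and 18.1, 48.0 and 30.3 CPM in YAP2-5SA-∆C skin. Its values varied more within each genotype than between them (log2 fold change 0.19 ± 0.34 SE, FDR 0.758), and adipocyte markers, from cells that express *Cyp2e1*, summed to 737, 962 and 834 CPM in wild type and 682, 953 and 1032 CPM in YAP2-5SA-∆C skin.

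The remaining tested members, *Cyp3a13*, *Cyp4v3*, *Cyp4x1*, *Cyp20a1* and *Cyp2u1*, had overlapping groups and log2 fold changes of 0.29, 0.11, 0.13, -0.14 and -0.22. Over the 37 tested members, wild type replicate 1 was the highest wild type library for 21 and YAP2-5SA-∆C replicate 2 the highest YAP2-5SA-∆C library for 16, while YAP2-5SA-∆C replicate 1 was the lowest of its genotype for 18. The summed level of the 81 members with a row was 738, 601 and 613 CPM in wild type and 890, 1048 and 851 CPM in YAP2-5SA-∆C skin.

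**Figure D3:**
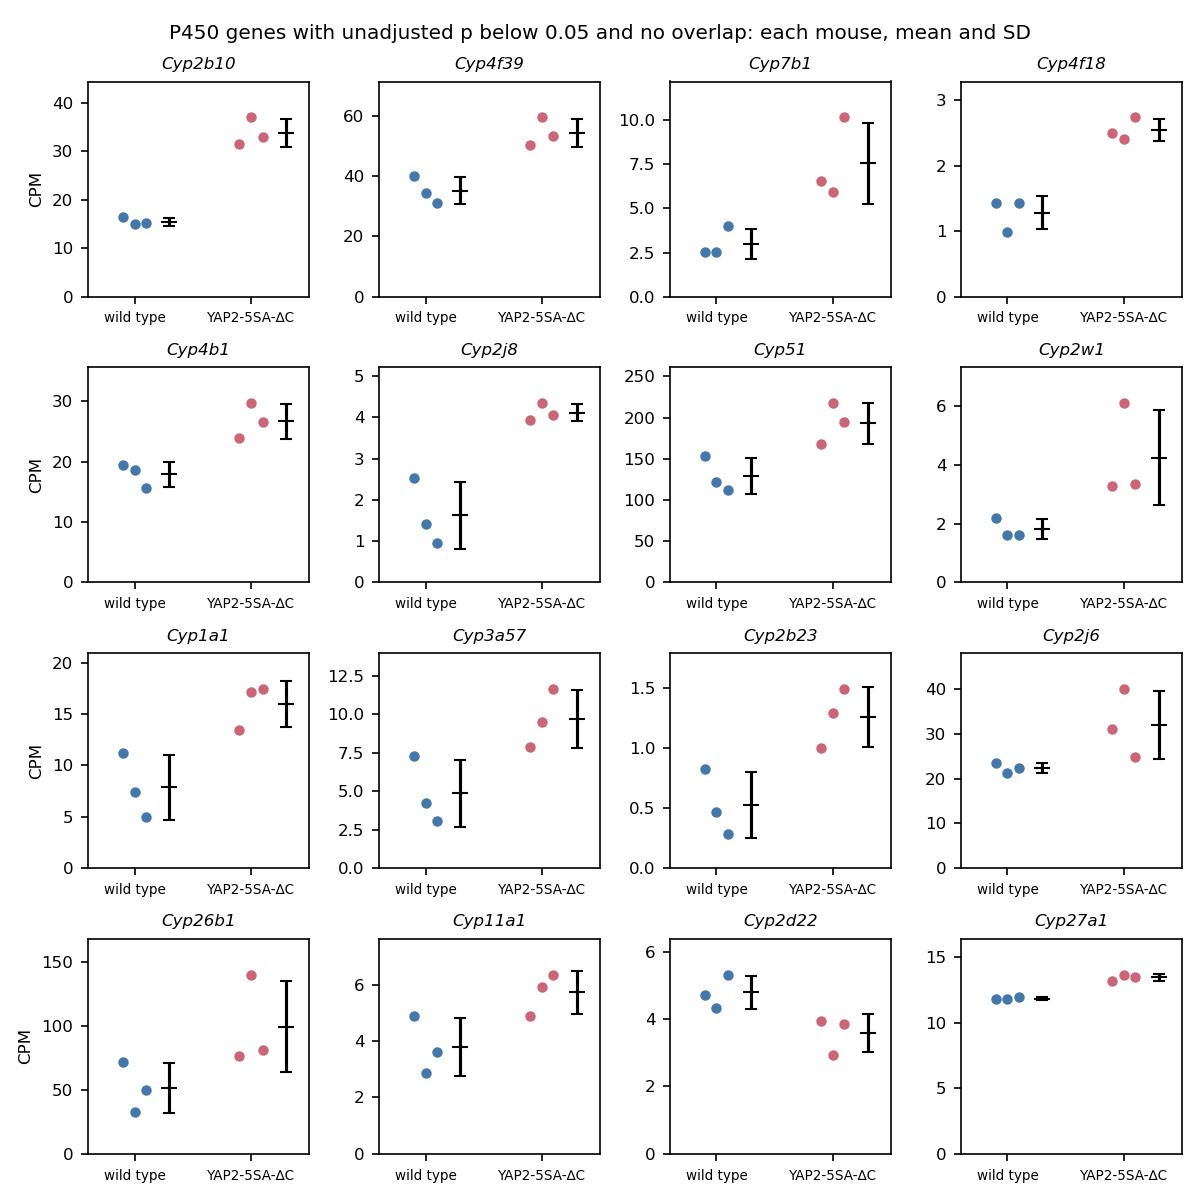
CPM in each mouse for the 16 P450 genes with an unadjusted p below 0.05 and no overlap between genotypes, in order of p; dots are mice in the order of replicates 1 to 3, and the black mark and bar are the mean and SD of 3 mice, with each y axis starting at 0. *Cyp2b10* has the clearest gap, from 16.4 CPM in the highest wild type mouse to 31.5 CPM in the lowest YAP2-5SA-∆C mouse, and *Cyp2d22* is the only gene of the 16 that is lower.

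Because YAP acts on DNA through TEAD factors, the promoters of the members were searched for the 6-letter core of the TEAD motif, GGAATG, on both strands. The windows run from 250 bases before to 50 bases after the start of the gene in RefSeq (GRCm38.p6), and 29 of the 37 tested members had one. The letters occurred for 4 of these 29 members (13.8%), beside 16.6% of all genes with such a window. The matches are shown because both *Cyp2b10* and its copy *Cyp2b19* have one. Each line is 30 bases, 5′ to 3′ on the strand of the gene, with the matching letters in capitals, and *Cyp2w1* has 2 matches of the reverse complement, CATTCC.
Cyp2b10, chr7:25897500-25897529, plus strand: agtgagggtaagGGAATGaggagtgagcag
Cyp2b19, chr7:26756993-26757022, plus strand: ggttggggtaaaGGAATGgggagtgagcag
Cyp2j6, chr4:96553721-96553750, minus strand: gaagtttgggaaGGAATGggtaaaagctct
Cyp2w1, chr5:139352456-139352485, plus strand: gaggagaccccaCATTCCacataacctgta
Cyp2w1, chr5:139352513-139352542, plus strand: ctgcaaactgctCATTCCacattctcgggg

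The stretches of *Cyp2b10* and *Cyp2b19* were identical at 25 of 30 bases and began the match 146 and 137 bases before the start. A match to 6 letters is a description of sequence and was not tested against binding data. The same windows were searched for GCGTG, the core that the aryl hydrocarbon receptor binds, on both strands. It occurred for 12 of 29 members (41.4%), beside 35.2% of all genes. The 2 called members each had 2 matches, and so did *Cyp20a1* and *Cyp51*, which were not called. The matches are shown for the textbook target of that receptor and for the 2 called members.
Cyp1a1, chr9:57697547-57697576, plus strand: tcagataaggagGCGTGgccaacagacaca
Cyp2b10, chr7:25897545-25897574, plus strand: gctatggctcctCACGCtctggacaatgag
Cyp2b10, chr7:25897637-25897666, plus strand: gatcctgctggaGCGTGgagtgaagtcaac
Cyp4f39, chr17:32452512-32452541, plus strand: tgtctgcattttCACGCctccctctttgtc
Cyp4f39, chr17:32452633-32452662, plus strand: ttgccagtatggGCGTGgccccggagttgt

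The regulators and partners of the P450s were described from lists of other genes. Among 18 tested of 20 receptors and sterol-sensing factors, 1 was called higher and none lower, beside 1.44% and 0.464% of all genes. The median log2 fold change of the list was 0.23. The groups were apart in the higher direction for 6 and in the lower direction for 2, beside 15.5% and 18.3% of all genes. These 2, named after their values were seen, were the retinoic acid receptor gene *Rarb* (log2 fold change -0.96, FDR 0.0823) and the vitamin D receptor gene *Vdr* (-0.30, FDR 0.137). The called gene was *Ahr*, the aryl hydrocarbon receptor itself, at 60.5, 44.3 and 48.8 CPM in wild type and 80.1, 101 and 86.4 CPM in YAP2-5SA-∆C skin. Its groups were apart, with a log2 fold change of 0.80 ± 0.14 (SE, FDR 0.0437, edgeR's quasi-likelihood test). The 2 regulators that were not tested were named after their values were seen, since they are the receptors best known for *Cyp2b10*. *Nr1i3*, the constitutive androstane receptor, was at 0 to 0.176 CPM in the 6 libraries, and *Nr1i2*, the pregnane X receptor, had no row.

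Of the 10 redox partners of P450s, all were tested, none was called, and 7 had groups apart in the higher direction and 1 in the lower, beside 15.5% and 18.3% of all genes. Their median log2 fold change was 0.26, and their summed level was 503 to 536 CPM in wild type and 597 to 672 CPM in YAP2-5SA-∆C skin. *Por*, the reductase that most P450s need, was at 63.2, 53.3 and 52.8 CPM in wild type and 67.3, 89.0 and 79.3 CPM in YAP2-5SA-∆C skin (log2 fold change 0.48 ± 0.12 SE, FDR 0.0700). *Cyb5b*, a cytochrome b5 of the mitochondrial outer membrane, was at 119, 126 and 118 CPM in wild type and 143, 151 and 155 CPM in YAP2-5SA-∆C skin (log2 fold change 0.31 ± 0.06 SE, FDR 0.0508). Both had groups apart, and both missed the threshold.

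The 12 genes of heme synthesis and breakdown had no call and a median log2 fold change of 0.10. The largest estimates were those of *Cpox*, at 30.4 to 34.1 CPM in wild type and 36.1 to 43.7 CPM in YAP2-5SA-∆C skin (log2 fold change 0.33, FDR 0.0846), and *Urod*, whose groups overlapped (0.29, FDR 0.148). The 12 eicosanoid genes that act beside the P450s also had no call, with a median of 0.29 and groups apart for 4 in the higher and 1 in the lower direction, beside 15.5% and 18.3% of all genes. The lipoxygenases *Alox12e* and *Alox12b* had the largest estimates there, with log2 fold changes of 0.81 ± 0.22 (SE, FDR 0.0801) and 0.72 ± 0.24 (SE, FDR 0.122), and the groups of both were apart. Of 14 other genes of drug metabolism, *Gsta4*, a glutathione transferase for products of lipid peroxidation, was called higher. It was at 3.29, 3.03 and 4.08 CPM in wild type and 19.3, 7.46 and 14.3 CPM in YAP2-5SA-∆C skin (log2 fold change 1.99 ± 0.34 SE, FDR 0.0440), and the median of that list was 0.12. The 1 call of 14 stands beside 1.44% of all genes, and the groups apart, 4 in the higher and 1 in the lower direction, beside 15.5% and 18.3%.

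The cell type markers give the setting in which these levels were read. Beside the lists given above, stress keratinocyte markers had 3 of 8 called higher (*Krt6b*, *Krt16* and *Sprr1b*), beside 1.44% of all genes, with 5 apart in the higher direction and 1 in the lower, beside 15.5% and 18.3%. That 1 was *Krt17*, named after its values were seen, with a log2 fold change of -0.63 (FDR 0.128). Of the 7 tested basal markers, *Krt14* was called higher, beside 1.44% of all genes. Their groups were apart for 4 in the higher direction and for none in the lower, beside 15.5% and 18.3%. All 10 tested hair markers had groups apart in the lower direction, beside 18.3% of all genes, with a median log2 fold change of -1.40, though none was called. Fibroblast markers summed to 9623 to 12952 CPM in wild type and 12411 to 16125 CPM in YAP2-5SA-∆C skin, endothelial markers to 99.7 to 119 and 119 to 143 CPM, and muscle markers to 1439 to 7054 and 1378 to 3546 CPM, with no call in these 3 lists. The part of each cell type in the P450 levels was not tested.

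**Figure D4:**
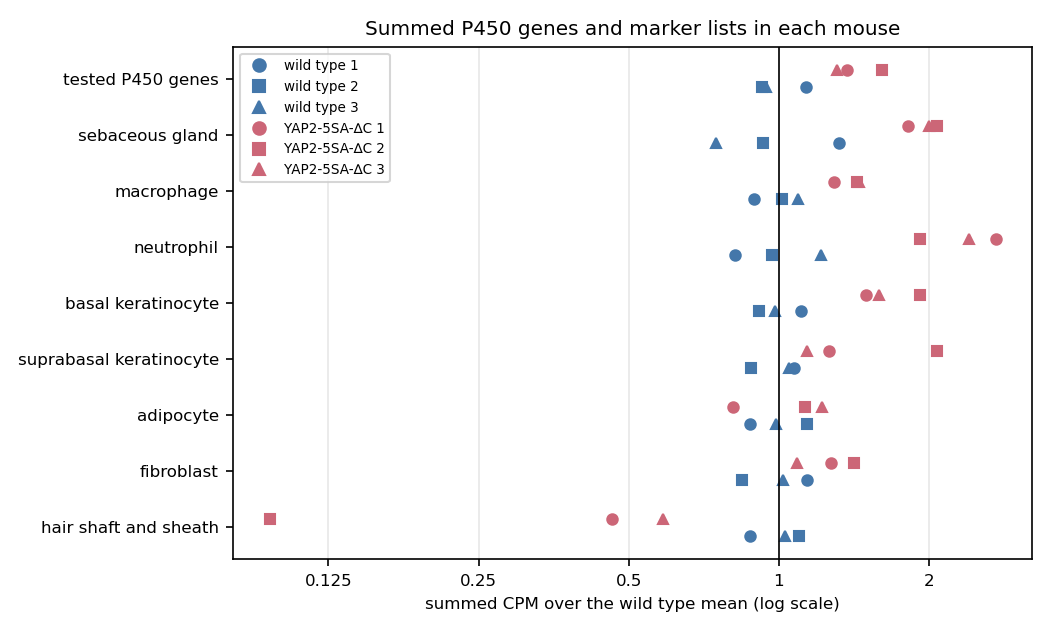
Summed CPM of the tested P450 genes and of 8 marker lists in each mouse, divided by the wild type mean of the same sum, on a log axis; symbols mark the replicate. The sebaceous gland sums of YAP2-5SA-∆C mice (858 to 981 CPM) lie above those of wild type (354 to 626 CPM), the hair sum is lowest in YAP2-5SA-∆C replicate 2 (1445 CPM), and the adipocyte sums overlap.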

How the data were processed

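RNA-Seq libraries of skin biopsies came from 6 female mice, 3 YAP2-5SA-∆C mice and 3 of their wild type littermates. The deposited values are raw counts for each Ensembl gene, which the authors made from 75-nucleotide paired-end reads mapped to GRCm38 with Tophat2 and Bowtie2 (2.0.12 and 2.1.0 in the submitters' notes) and counted with HTSeq-count for uniquely mapped reads. Reads that fit several P450 genes equally are therefore missing. The annotation release and the strand setting are not given in the sources used here. The labels name a total RNA kit and also mRNA libraries, which changes the RNAs counted.

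Gene names and exon lengths were taken from GENCODE M21, in which 558 of 26579 identifiers were absent. Genes reaching 1 CPM in 3 or more libraries were scaled with TMM and tested with edgeR 4.0.16 in R 4.3.3 (glmQLFit and glmQLFTest, genotype as the only term), with Benjamini-Hochberg adjustment (FDR) over all 15102 genes and a threshold of 0.05. The standard error was the log2 fold change divided by the square root of F. The quasi-likelihood test, the likelihood-ratio test and voom were first run on simulated counts, and DESeq2 was not. Counts of 11225705 to 19505036 per library set the precision. Replicates were separate mice, so p-values measure the spread between them.

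Alternatives were the likelihood-ratio test, limma 3.58.1 (voom), DESeq2 1.42.0, other scalings and filters, a block for the replicate number and removal of single libraries. The members and lists were chosen with earlier results of these data known. Every tested P450 gene could be named. Values per sample were given for members with FDR below 0.05, those with an unadjusted p below 0.05 and groups apart, the 5 highest per kb, the lists of family 1, sterols, retinoids and vitamin D, and the 3 genes on each side of the filter, with *Cyp2s1* added after its values were seen. Genes of other lists were named when FDR was below 0.05, or else the 2 with the largest fold change. Promoter windows came from RefSeq and transcripts from GENCODE. No separate set of protein sequences was used, and the heme signature was searched in the translated coding sequences.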

Additional observations from a re-analysis of the deposited data

How the results depend on the processing

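Against 2 P450 genes called (288 of all genes), the likelihood-ratio test called 13 (1568; *Cyp2b23*, tested through its YAP2-5SA-∆C libraries alone, is among the 13), DESeq2 10 (1583) and a fit with no filter on low counts 4 of 81 (497), the added genes of the last being *Cyp4f18* and *Cyp7b1*. Scaling by library size alone called 444 of all genes and 3 P450 genes. With the replicate block, 0 P450 genes and 0 genes in all were called by edgeR's quasi-likelihood test, with 16 and 2949 at an unadjusted p below 0.05. The correlations of same-numbered libraries' deviations were -0.332, -0.228 and -0.0502, and no library correlated best with its own number. These deviations were taken from the mean of 3 libraries in each genotype. They cannot show if same-numbered mice were paired by litter or handling. Leaving out each library gave 0 to 3 P450 genes and 0 to 816 genes in all. Removing replicate 2 or replicate 3 of wild type, or replicate 3 of YAP2-5SA-∆C, left no gene called by edgeR's quasi-likelihood test (2725, 2844 and 3692 genes at an unadjusted p below 0.05), and removing replicate 2 of YAP2-5SA-∆C gave 816. Calls in the higher direction were 75.7% of all calls, 53.1% by the likelihood-ratio test, 60.5% by DESeq2, and 49.9%, 86.6% and 88.4% with replicate 2 of YAP2-5SA-∆C, replicate 1 of wild type and replicate 1 of YAP2-5SA-∆C removed. Of the log2 fold changes of the 37 members, 7 genes changed sign when a library was left out, and none did under the other alternatives. With single libraries removed, the log2 fold changes ran from -0.29 to 0.0096 for *Cyp27b1* (above 0 without YAP2-5SA-∆C replicate 3), -0.20 to 0.49 for *Cyp2e1* (below 0 without YAP2-5SA-∆C replicate 2), -0.75 to 0.18 for *Cyp2u1* (above 0 in 2 cases, also 0.11), -0.0099 to 0.14 for *Cyp39a1*, -0.12 to 0.026 for *Cyp4f16* (above 0 in 2 cases, also 0.0084), -0.061 to 0.15 for *Cyp4f17* (below 0 in 2 cases, also -0.053) and -0.020 to 0.27 for *Cyp4x1*. None of these 7 had passed the test. The cause of these changes was not tested. The 44 members below the filter had at most 81 counts each over the 6 libraries and entered only the fit with no filter, which called none of them.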
